A study of Mus musculus with 4 samples.

Results

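The transcripts described here encode the enzymes, transporters and lipases that make, store, release and burn fatty acids in mouse tissue. They are 35 genes listed by name and grouped by role into 11 genes of lipogenesis, 10 of fatty acid uptake and triglyceride storage, 3 of lipolysis and 11 of fatty acid oxidation, out of 16593 genes with a named probe on the arrays. Of the 35, 33 had at least 1 probe named by symbol, with 45 probes in all, and 32 were detected (detection p under 0.01) on at least 1 array. The remaining 3 were Acacb and Hadha, for which no probe was named, and Cpt1a, whose only probe was not detected on any array.

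Total RNA of Balb/c mouse tissue labelled thyroid was measured on 4 Illumina arrays in a series on radioiodine, with 1 array each at absorbed doses of 0, 0.85, 8.5 and 17 Gy, all at 24 h. The titles of all 4 samples name the iodine isotope, that of the 0 Gy sample included, and the labels state no age, no sex and no number of mice behind a sample. With 1 array a dose there is no replicate error, so no difference below has a test or a p-value, and each describes these arrays. The probes' own disagreement gives a partial yardstick: between the brightest probe of a gene and another detected probe of the same gene, the log2 difference from the 0 Gy array differed by a median of 0.30 at 0.85 Gy (1980 probe pairs), 0.28 at 8.5 Gy (2021 pairs) and 0.22 at 17 Gy (2052 pairs). This gap covers the probes alone and not the spread between animals.

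The labelled tissue was checked against its markers. Of 9 thyrocyte markers with a probe, only the thyrotropin receptor gene Tshr was detected, while Tg, Slc5a5, Pax8, Nkx2-1, Foxe1, Iyd, Duox2 and Dio1 were not detected on any array. Fat markers were detected at 7 of 7 on the 0 and 17 Gy arrays and at 6 of 7 on the others, where the adipokine gene Retn was missing. Of 7 brown fat markers, 5 were detected on every array, and Dio2 and Prdm16 on none. Skeletal muscle markers were detected at 19 of 19 on the 8.5 Gy array, against 2 of 19 at 0 Gy, 3 at 0.85 Gy and 8 at 17 Gy. Their summed normalized intensity was 153477 at 8.5 Gy, against 4503 at 0 Gy, 4529 at 0.85 Gy and 5298 at 17 Gy. Salivary gland markers were detected at 9 of 11 on the 17 Gy array, against 2 of 11 at 0 Gy, with summed intensities of 17070 and 1140. In such bulk RNA, fewer cells of a type and less RNA per cell cannot be told apart.

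In fat, lipogenesis runs from cytosolic citrate, which ATP citrate lyase splits to acetyl-CoA, through acetyl-CoA carboxylase and fatty acid synthase to palmitate, which elongases and desaturases modify. Fatty acids are stored as triglyceride and released by successive lipases. Oxidation takes them into mitochondria through the carnitine palmitoyltransferases and removes acetyl-CoA in repeated cycles of dehydrogenation, hydration, dehydrogenation and thiolysis, and brown fat uses this route to fuel heat production.

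Promoter windows are shown for 3 members with a probe on 1 or the other side of the pattern described further on. Acadl and Acadm encode mitochondrial acyl-CoA dehydrogenases, each with at least 1 probe that was higher on the 0.85 and 8.5 Gy arrays. After normalization the brighter Acadm probe was not higher on them. Elovl5 encodes an elongase of polyunsaturated fatty acids, and its probe was lower on the same arrays. No window was found for Acaa2 or Acat1, which had the largest higher differences among the members. Each window shown is 300 bases from RefSeq (GRCm38.p6), 250 before to 50 after the annotated start, written 5′ to 3′ on the gene's strand. Capitals mark matches on either strand to AGGTCA (the core motif of nuclear receptors), GGGCGG (the Sp1 box), CCAAT or CACGTG (an E-box).
Acadl promoter, chr1:66863260-66863559, minus strand: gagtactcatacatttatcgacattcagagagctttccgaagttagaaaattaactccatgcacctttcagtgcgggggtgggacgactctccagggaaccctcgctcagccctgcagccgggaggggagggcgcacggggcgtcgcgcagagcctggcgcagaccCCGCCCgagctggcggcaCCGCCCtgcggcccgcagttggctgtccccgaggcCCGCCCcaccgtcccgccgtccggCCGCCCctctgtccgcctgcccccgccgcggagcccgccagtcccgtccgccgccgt
Acadm promoter, chr3:153944594-153944893, minus strand: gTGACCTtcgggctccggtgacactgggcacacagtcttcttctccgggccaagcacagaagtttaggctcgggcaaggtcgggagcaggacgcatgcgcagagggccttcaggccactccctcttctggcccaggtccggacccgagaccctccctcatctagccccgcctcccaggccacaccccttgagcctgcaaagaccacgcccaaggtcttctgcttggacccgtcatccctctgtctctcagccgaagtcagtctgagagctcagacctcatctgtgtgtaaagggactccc
Elovl5 promoter, chr9:77917115-77917414, plus strand: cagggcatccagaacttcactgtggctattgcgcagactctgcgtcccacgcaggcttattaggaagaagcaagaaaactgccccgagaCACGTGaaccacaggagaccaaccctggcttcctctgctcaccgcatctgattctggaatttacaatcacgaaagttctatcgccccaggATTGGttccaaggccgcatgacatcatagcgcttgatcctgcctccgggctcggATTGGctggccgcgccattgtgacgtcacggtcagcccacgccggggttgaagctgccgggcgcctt
The Acadl window held 4 Sp1 boxes, the nearest at -7 from the start, and none of the other motifs. The Acadm window held 1 AGGTCA match at -249, and the Elovl5 window held CCAAT matches at -71 and -17 and an E-box at -161. Windows were found for 25 of the 35 genes (33 windows, some genes having several starts). AGGTCA was in 27.3% of these windows and in 16.3% of all 32851 promoter windows, GGGCGG in 63.6% and 35.7%, CCAAT in 42.4% and 37.4%, and CACGTG in 15.2% and 7.15%. A direct repeat of AGGTCA with 1 base between the copies was in 0 of the 33 windows and in 0.0396% of all windows. These are matches of letters and not sites of binding, and GGGCGG depends on base composition, which was 70.3% G and C in the Acadl window and 57.7% in that of Elovl5.

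A small set of oxidation genes, led by the mitochondrial thiolase gene Acaa2, read higher on the 0.85 and 8.5 Gy arrays. The range over the 4 arrays, highest minus lowest normalized value, had a median of 0.42 log2 over the 32 detected members, against 0.56 over all 8383 detected genes. For 22 of the 32 members (68.8%) it was under 1.5-fold, against 53.3% of all genes. Of those 22, 7 (Acly, Acaca, Scd1, Lpl, Dgat2, Pnpla2 and Acadm) lay within the 50 brightest probes of every array, where the normalization leaves little room to differ, and of the other 25 members 15 (60%) were under 1.5-fold. The range reached 2-fold in 5 members (15.6%), against 13.3% of all genes, and these were Slc27a1, Acat1, Acaa2, Elovl4 and Acadl. The 8.5 Gy array was the lowest of the 4 for 15 of the 32 members (46.9%, against 31.3% of all genes) and the highest for 3 (9.38%, against 22.4%). On that array the skeletal muscle markers stood high, and their part in this order was not tested. Relative to the median of the fat markers, only 11 of the 32 members kept both their highest and their lowest array, so the order depends on what the arrays are scaled to.

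**Figure D1:**
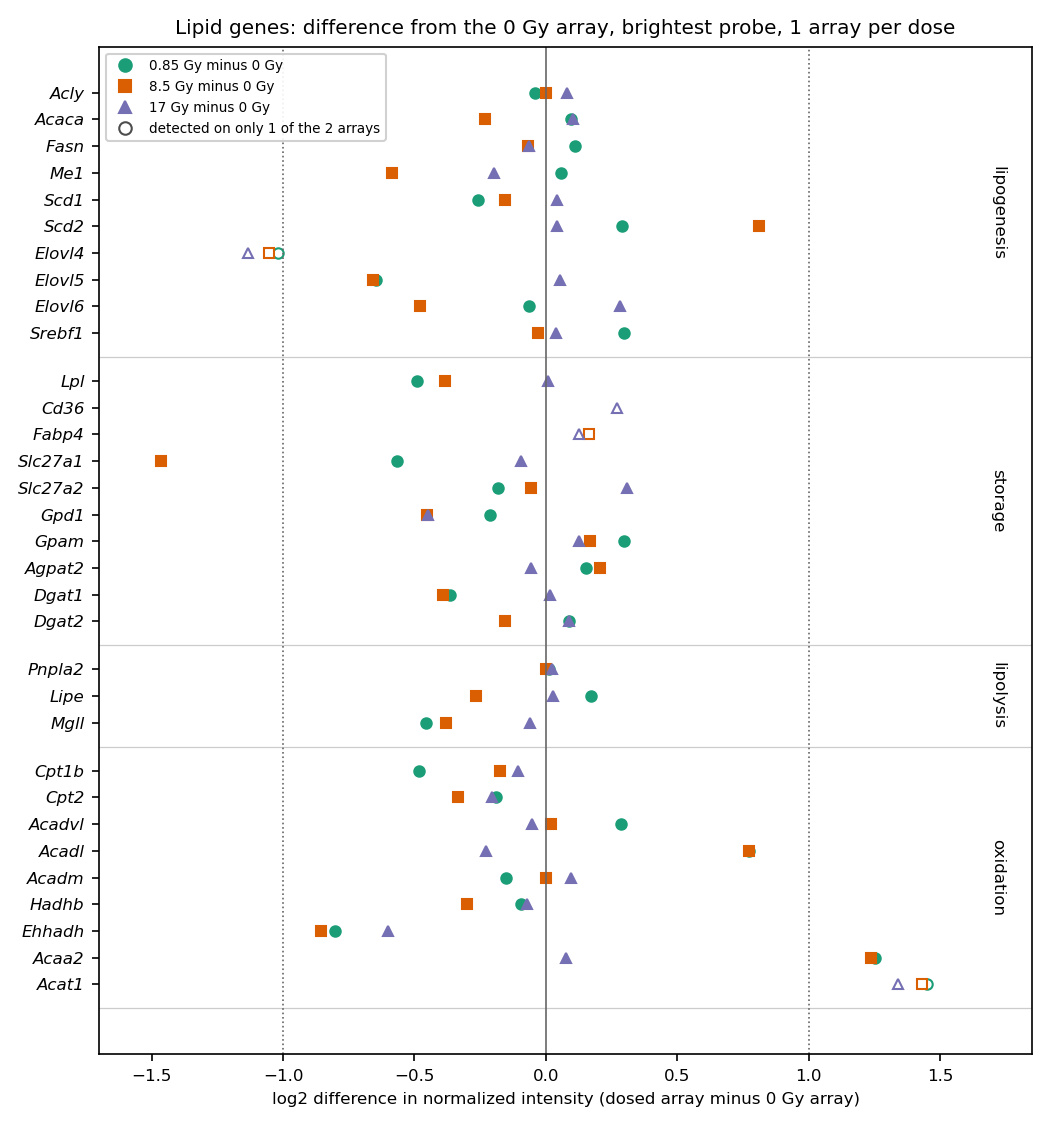
Log2 difference in normalized intensity between each dosed array and the 0 Gy array for the 32 detected lipid genes, by role, with 0.85 Gy as circles, 8.5 Gy as squares and 17 Gy as triangles. Open symbols mark genes detected on only 1 of the 2 arrays, whose fold is a smaller bound or, for Fabp4 at 17 Gy, not given. Dotted lines mark 2-fold, and the 17 Gy symbols lie near 0 for most genes. Acaa2 stands out at 0.85 and 8.5 Gy (1.25 and 1.24) and Slc27a1 at 8.5 Gy (-1.46). The open symbols of Acat1 (1.45, 1.43 and 1.34 in order of dose) and Elovl4 (-1.02, -1.05 and -1.13) also lie past 2-fold.

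Fatty acid oxidation genes held the clearest difference. Acaa2 encodes a mitochondrial ketoacyl-CoA thiolase, an enzyme of the last step of an oxidation cycle. Its brightest probe read 2988 at 0 Gy, 9980 at 0.85 Gy, 9150 at 8.5 Gy and 3257 at 17 Gy in non-normalized bead intensity. The 0.85 and 8.5 Gy arrays were thus high and the 0 and 17 Gy arrays low. After normalization Acaa2 was 2.38-fold higher at 0.85 Gy and 2.36-fold higher at 8.5 Gy than at 0 Gy, while 17 Gy was 1.05-fold above 0 Gy. Its 3 other probes gave log2 differences of 1.34, 1.11 and 0.92 at 0.85 Gy and 1.24, 1.10 and 0.58 at 8.5 Gy. All 4 probes were therefore higher on both arrays, by more than the median gap between probes of a gene. At 17 Gy they gave 0.24, 0.21 and 0.61. Because these comparisons share the 0 Gy array, the 17 Gy array offers another baseline: at 17 Gy the brightest probe was 2.26-fold lower than at 0.85 Gy and 2.24-fold lower than at 8.5 Gy. The fourth probe, the dimmest, was 1.02-fold higher at 17 Gy than at 8.5 Gy.

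Acadl, the long-chain acyl-CoA dehydrogenase gene, had the same shape over the arrays. Its brightest probe read 1225 at 0 Gy, 2726 at 0.85 Gy, 2491 at 8.5 Gy and 1119 at 17 Gy, which is 1.71-fold higher on both the 0.85 and the 8.5 Gy array than at 0 Gy. Its other probes gave 0.48 and 0.65 log2 at 0.85 Gy and 0.18 and 0.56 at 8.5 Gy. At 8.5 Gy one of these is smaller than the median gap between probes. The 17 Gy array was 2-fold lower than both the 0.85 and the 8.5 Gy array at the brightest Acadl probe, and 1.27-fold and 1.03-fold lower at the next.

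Acadm, the medium-chain acyl-CoA dehydrogenase gene, depended on the probe. The brighter probe, between rank 10 and rank 21 of all 26512 probes on each array, read 21336 at 0 Gy, 25913 at 0.85 Gy, 25944 at 8.5 Gy and 22349 at 17 Gy, and its log2 differences from 0 Gy were -0.15, 0.00 and 0.09 in order of dose. Quantile normalization gives the same rank the same value on every array, which leaves little room for a difference at that brightness. The other Acadm probe read 3512 at 0 Gy, 6722 at 0.85 Gy, 7090 at 8.5 Gy and 3281 at 17 Gy, with log2 differences of 0.42, 0.65 and -0.11. It had the shape of Acaa2 and Acadl, and the brighter probe did not.

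Acat1, the mitochondrial acetoacetyl-CoA thiolase gene of ketone body and isoleucine metabolism, read 95 at 0 Gy, 165 at 0.85 Gy, 155 at 8.5 Gy and 138 at 17 Gy. It was detected at every dose but 0 Gy, where it was not well above background. After background correction, Acat1 was at least 2.07-fold higher at 0.85 Gy, at least 2.04-fold at 8.5 Gy and at least 1.91-fold at 17 Gy. These bounds hold on that scale alone: in the authors' normalized values Acat1 was at 0.62, 0.61 and 0.57 log2, under 2-fold at every dose. Unlike Acaa2, it was also high at 17 Gy. In a bound "at least N-fold", the array that detected the probe was set against the lowest normalized value among probes detected on the other array, or against the dim probe's own value where that was higher.

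The other oxidation genes differed less or in the other direction. Acadvl, the very long-chain acyl-CoA dehydrogenase gene, read 7207 at 0 Gy, 12363 at 0.85 Gy, 9746 at 8.5 Gy and 6994 at 17 Gy, but the 0.85 and 8.5 Gy arrays were brighter in general, and after normalization the differences were 0.29, 0.02 and -0.05. Cpt1b, the muscle and brown fat form of the outer mitochondrial carnitine palmitoyltransferase, read 4210 at 0 Gy, 4243 at 0.85 Gy, 4780 at 8.5 Gy and 4010 at 17 Gy. Its log2 differences were -0.48, -0.18 and -0.10 in order of dose, with -0.38, -0.17 and -0.08 at its other probe, and the 2 probes put the arrays in the same order. Skeletal muscle, whose markers stood high on the 8.5 Gy array, also expresses Cpt1b, and its part in these values was not tested. Centred on the fat markers, Cpt1b at 8.5 Gy was at 0.15, so its direction there depends on the scaling. Cpt2, the inner membrane partner of the carnitine shuttle, was at -0.19, -0.33 and -0.21. Hadhb, the beta subunit of the mitochondrial trifunctional protein, was at -0.09, -0.30 and -0.07. Ehhadh, the bifunctional enzyme of peroxisomal oxidation, read 170 at 0 Gy, 154 at 0.85 Gy, 144 at 8.5 Gy and 143 at 17 Gy. Every dosed array lay below 0 Gy for Ehhadh, 1.74-fold, 1.81-fold and 1.52-fold in order of dose, and with intensities this near the background the fold rests on the background correction (-0.44 log2 in place of -0.80 at 0.85 Gy in the authors' normalized values).

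**Figure D2:**
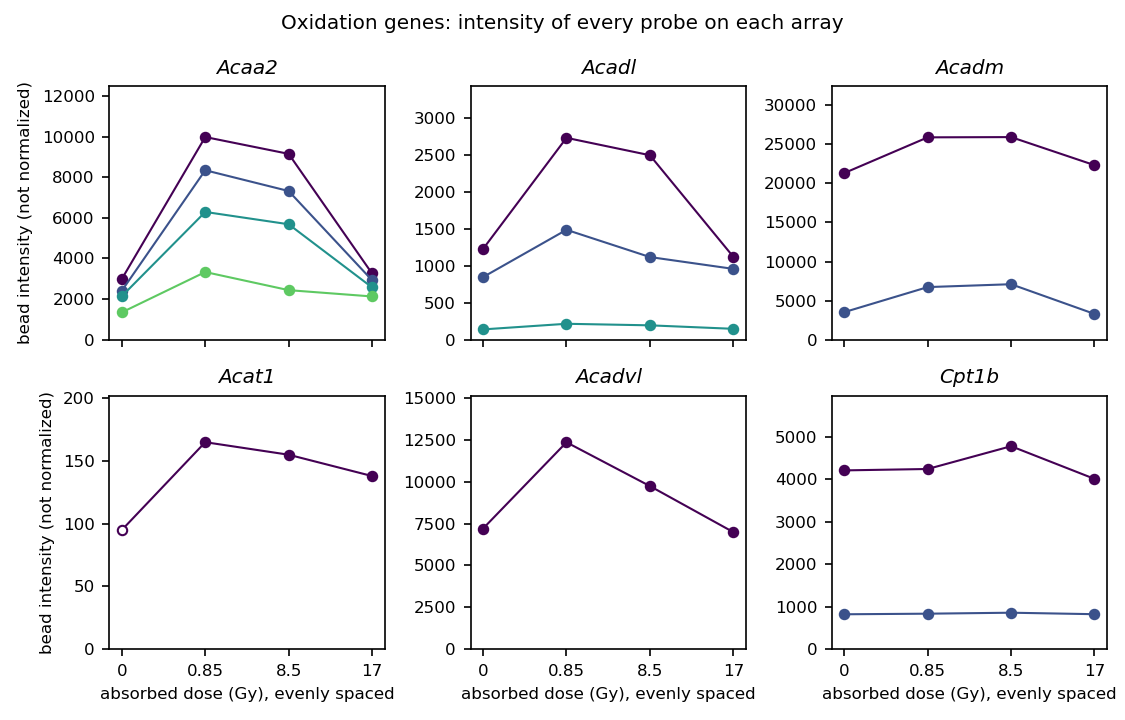
Non-normalized bead intensity of every probe of 6 oxidation genes on the 0, 0.85, 8.5 and 17 Gy arrays, 1 line per probe, doses evenly spaced, and open circles where the probe was not detected. All 4 Acaa2 probes peak at 0.85 Gy (9980 for the brightest), and the intensities are not scaled between arrays, which had medians of 92, 108, 105 and 95 in order of dose.

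Lipogenesis genes were mixed. Their range over the arrays had a median of 0.49 log2 over 10 members, against 0.56 over all detected genes. It was under 1.5-fold for 50% of the members, against 53.3% of all genes. The genes of the core route to palmitate differed little. Acly, ATP citrate lyase, was among the 5 brightest probes on every array, at 28685 at 0 Gy, 34825 at 0.85 Gy, 32247 at 8.5 Gy and 31656 at 17 Gy, and its normalized values spanned 0.12 log2. At such ranks the normalization again leaves little room, so this small span says little about Acly. Acaca, the cytosolic acetyl-CoA carboxylase, read 16203 at 0 Gy, 24613 at 0.85 Gy, 18853 at 8.5 Gy and 17261 at 17 Gy, with log2 differences of 0.09, -0.23 and 0.10. Fasn, fatty acid synthase, read 718, 991, 796 and 719 at 0, 0.85, 8.5 and 17 Gy, with differences of 0.11, -0.07 and -0.06. These 3 genes of the core route to palmitate stayed within the median gap between probes in all 3 comparisons. Acaca, like Acly, lay within the 50 brightest probes of every array, so its small differences say little. Srebf1, the transcription factor that drives lipogenic genes, was at 0.30, -0.03 and 0.04, and a second Srebf1 probe was not detected.

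Me1, the malic enzyme that supplies NADPH, was at 0.06, -0.59 and -0.20 in order of dose at its brighter probe, but at 0.29, 0.04 and 0.21 at the other, so the lower value at 8.5 Gy was not shared by both probes. Of the desaturase genes, Scd1 read 18792 at 0 Gy, 21585 at 0.85 Gy, 21602 at 8.5 Gy and 18452 at 17 Gy, with differences of -0.26, -0.16 and 0.04. Scd1 lay within the 50 brightest probes of every array, where the normalization leaves little room. Scd2 read 239, 345, 412 and 259 at 0, 0.85, 8.5 and 17 Gy. The Scd2 value at 8.5 Gy was 1.75-fold above 0 Gy and the highest of the 4, and it was 1.22-fold above 0 Gy at 0.85 Gy. The 2 genes are close relatives, and the probe sequences were not used here.

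Of the elongase members, Elovl5 was lower on the 0.85 and 8.5 Gy arrays. It read 7379 at 0 Gy, 6941 at 0.85 Gy, 6050 at 8.5 Gy and 7902 at 17 Gy, and after normalization it was 1.57-fold lower at 0.85 Gy and 1.58-fold lower at 8.5 Gy, with 0.05 log2 at 17 Gy. Against the 0.85 and 8.5 Gy arrays, the 17 Gy array was 1.63-fold and 1.64-fold higher. Elovl5 had 1 probe. In the authors' normalized values it was at -0.57 and -0.58 log2 at 0.85 and 8.5 Gy, just under 1.5-fold. With scaling to the 75th percentile, its value at 0.85 Gy was -0.38. Elovl6, which extends palmitate to stearate, was at -0.06, -0.48 and 0.28 in order of dose. For Elovl6 the value at 0.85 Gy was 0.07 when centred on the fat markers. Elovl4, an elongase of very long-chain fatty acids, was detected at 0 Gy alone, at an intensity of 112, and read 104, 100 and 88 at 0.85, 8.5 and 17 Gy. Its log2 differences of -1.02, -1.05 and -1.13 passed 2-fold, but as bounds on that scale they come to at least 1.28-fold, 1.40-fold and 1.40-fold lower, and the authors' normalized values gave -0.41, -0.42 and -0.46. The 3 dosed arrays have no order among themselves for Elovl4, since none detected it.

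Uptake and storage genes included the largest lower value. Slc27a1, a fatty acid transport protein of fat and muscle, read 1471 at 0 Gy, 1350 at 0.85 Gy, 685 at 8.5 Gy and 1476 at 17 Gy. Its 8.5 Gy array stood alone below the others, 2.76-fold lower than 0 Gy, and the 17 Gy array was 2.58-fold higher than the 8.5 Gy array. At 0.85 Gy Slc27a1 was at -0.56 log2 against 0 Gy. Centred on the fat markers, the difference at 8.5 Gy was -1.14 in place of -1.46, and with the muscle and salivary probes left out before normalization it was -1.44. The part that muscle RNA on the 8.5 Gy array has in it beyond this was not tested.

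Lpl, the lipase that frees fatty acids from circulating lipoproteins, read 27689 at 0 Gy, 25544 at 0.85 Gy, 24948 at 8.5 Gy and 27327 at 17 Gy, with log2 differences of -0.49, -0.39 and 0.01. It ranked between 4 and 22 of all probes, and the 17 Gy array lay 1.41-fold above 0.85 Gy. Slc27a2, a transporter and acyl-CoA synthetase, was at -0.18, -0.06 and 0.31. Cd36, the fatty acid translocase, and Fabp4, the fatty acid carrier of adipocytes, were each measured by 1 probe near background. Cd36 read 99, 120, 113 and 109 at 0, 0.85, 8.5 and 17 Gy and was detected at 17 Gy alone. Fabp4 read 100, 114, 119 and 107 and was detected at 8.5 and 17 Gy, although both genes are known as abundant in fat and the fat marker Adipoq read between 9339 and 12086 on these arrays. Whether these 2 probes capture their transcripts was not tested.

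Of the triglyceride synthesis enzymes, Gpd1, which supplies glycerol phosphate, was at -0.21, -0.45 and -0.45 in order of dose and so the highest at 0 Gy. Gpam, the mitochondrial acyltransferase of the first acylation step, was at 0.30, 0.17 and 0.13. Agpat2, the enzyme of the second acylation, was at 0.15, 0.21 and -0.06. Dgat1 and Dgat2 complete triglyceride by separate routes, and they differed: Dgat1 was at -0.36, -0.39 and 0.02, and Dgat2 at 0.09, -0.16 and 0.09. In all of these the size stayed under 1.5-fold. Dgat2 lay within the 50 brightest probes of every array, where the normalization leaves little room.

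The lipolysis genes act in order, Pnpla2 on triglyceride, Lipe on diglyceride and Mgll on monoglyceride. Pnpla2 read 21233 at 0 Gy, 28018 at 0.85 Gy, 25188 at 8.5 Gy and 21236 at 17 Gy, held ranks 12 to 14 of all probes and spanned 0.02 log2 after normalization, the narrowest span of any member. Lipe, hormone-sensitive lipase, was at 0.17, -0.27 and 0.03 at its brighter probe. Its dimmer probe, at intensities of 104, 157, 112 and 132 at 0, 0.85, 8.5 and 17 Gy, gave 0.85 at 0.85 Gy and 0.74 at 17 Gy, and it was not detected at 8.5 Gy, where it was at least 1.13-fold lower. Mgll was lower at every one of its 3 probes in each comparison, by 0.46, 0.68 and 0.10 log2 at 0.85 Gy, by 0.38, 0.92 and 0.25 at 8.5 Gy and by 0.06, 0.49 and 0.22 at 17 Gy. These probes shared a direction and not a size. The dimmest probe at 0.85 and 8.5 Gy, and the brightest at 17 Gy, lay within the median gap between probes. Fat markers had medians of -0.13 and -0.32 at 0.85 and 8.5 Gy. Relative to these the dimmest Mgll probe was not lower, so the shared direction depends on the scaling.

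**Figure D3:**
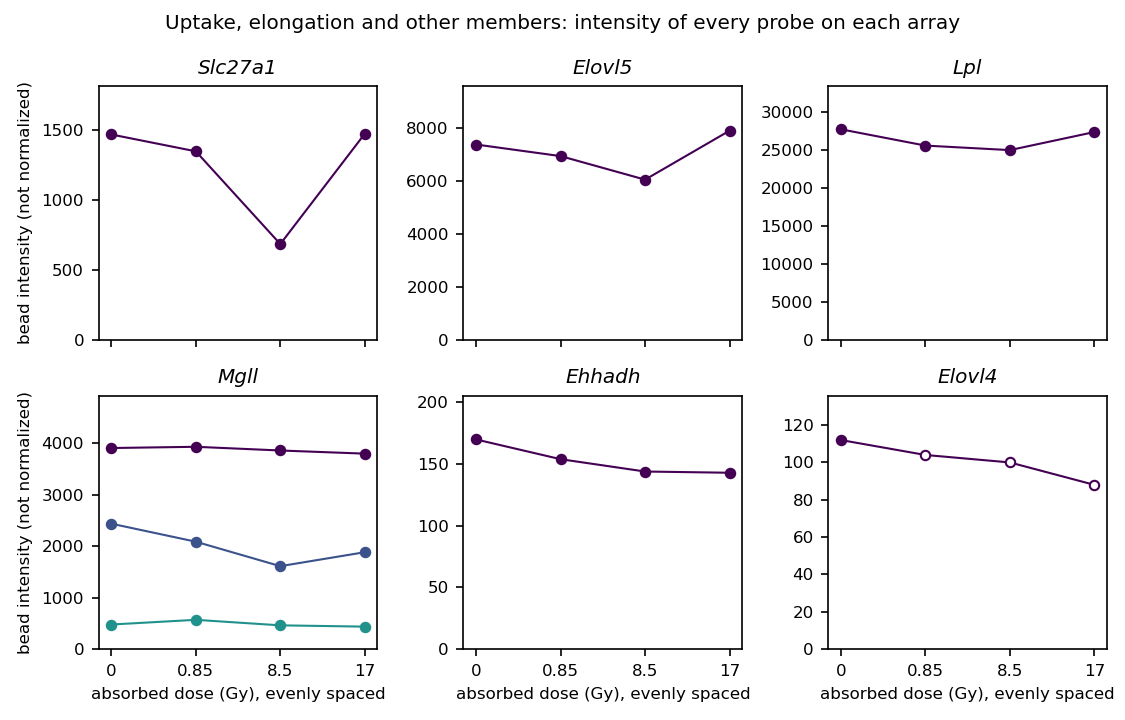
Non-normalized bead intensity of every probe of Slc27a1, Elovl5, Lpl, Mgll, Ehhadh and Elovl4 on the 0, 0.85, 8.5 and 17 Gy arrays, 1 line per probe, with open circles where the probe was not detected. Slc27a1 is low on the 8.5 Gy array (685) and Elovl4 is detected on the 0 Gy array alone.

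At 0.85 Gy against 0 Gy, 2 of the 30 members compared (those detected on at least 1 of the 2 arrays) were at least 2-fold higher, Acaa2 and Acat1. This is 6.67% of the members, and 1.78% of the 7682 genes compared were 2-fold higher. Elovl4 alone was 2-fold lower by its log2 difference (3.33%, against 3.68% of all genes), with a bound under 2-fold. At 1.5-fold, Acadl joined the higher members (3 of 30, against 9.37% of all genes), and Ehhadh and Elovl5 joined the lower ones (3 of 30, against 12.7%). For 17 of the 30 members (56.7%) the difference lay within the median gap between probes, as it did for 49.9% of all genes. Of the 7 members within the 50 brightest probes, all but Lpl are among these 17, and the normalization leaves them little room to differ. Medians were 0.01 log2 for the 10 lipogenesis members, -0.20 for 8 storage members, 0.01 for 3 lipolysis members and -0.09 for 9 oxidation members, beside -0.01 for all genes compared (-0.005 before rounding). The oxidation members ran from -0.80 (Ehhadh) to 1.45 (Acat1), a spread that their median hides. With every oxidation probe counted, so that Acaa2 and Acadl weigh more, the median was 0.45.

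At 8.5 Gy against 0 Gy, Acaa2 and Acat1 were again at least 2-fold higher among 31 members (6.45%, against 2.63% of 7862 genes), and Slc27a1 and Elovl4 were 2-fold lower (6.45%, against 3.63%), Elovl4 again with a bound under 2-fold. At a threshold of 1.5-fold, 4 members were higher, with Scd2 and Acadl added (12.9%, against 9.26%), and 5 were lower, with Elovl5, Me1 and Ehhadh added (16.1%, against 12.9%). Of the 31 members, 20 had a negative and 8 a positive difference, and 64.5% were negative against 54.0% of all genes. The medians were -0.19 for lipogenesis, -0.16 for storage, -0.27 for lipolysis and 0.00 for oxidation, beside -0.04 for all genes. With every oxidation probe counted, the oxidation median was 0.37. Fat markers had a median of -0.32 over 7 genes on this array, of which 6 were negative and 1, Lep at 0.51, was positive. Endothelial markers had a median of -0.56 over 9 genes. Centred on the fat markers, the medians were 0.13 for lipogenesis, 0.17 for storage, 0.06 for lipolysis and 0.32 for oxidation, so the sign of the first 3 depends on the scaling. The 8.5 and 0.85 Gy arrays were not 2-fold apart in either direction for any of 30 members, where 3.27% of all genes were higher and 1.48% lower at 8.5 Gy. At 1.5-fold, 0 members were higher at 8.5 Gy (8.78% of all genes) and 2 were lower, Slc27a1 and Me1 (6.67%, against 8.51%).

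At 17 Gy against 0 Gy, the lipid genes lay close together. Of 32 members compared, Acat1 was 2-fold higher by its log2 difference (3.12%, against 0.88% of 7839 genes) and Elovl4 2-fold lower (3.12%, against 0.459%), and both were detected on only 1 of the 2 arrays, with bounds under 2-fold. At 1.5-fold, Acat1 was still the 1 member higher (3.12%, against 5.06% of all genes), and Ehhadh joined Elovl4 among the lower (6.25%, against 4.64%). For 24 of the 32 members (75%) the difference was within the median gap between probes, against 54.5% of all genes. All 7 members within the 50 brightest probes are among these 24, and the normalization leaves them little room to differ. Medians were 0.04, 0.05, 0.02 and -0.07 for lipogenesis, storage, lipolysis and oxidation, beside 0.00 for all genes. Salivary gland and macrophage markers stood higher on this array, with a macrophage median of 0.84 log2 over 9 genes. Of 8 skeletal muscle markers compared, 6 were 2-fold higher, with a median of 1.15 log2, though only 2 of the muscle markers were detected at 0 Gy. Endothelial markers had a median of -0.45 over 9. The part of all these markers in the members' values was not tested. Without the 0 Gy array, the 17 Gy array set against 0.85 Gy had 0 of 31 members 2-fold higher (3.45% of all genes) and 2 lower, Acaa2 and Acadl (6.45%, against 1.35%). Set against 8.5 Gy, it had Slc27a1 higher (3.23%, against 3.47%) and Acaa2 and Acadl lower (6.45%, against 2.65%). At 1.5-fold, 17 Gy against 0.85 Gy added Elovl5 as higher (3.23%, against 11.8%) and 0 to the lower members (6.45%, against 8.41%). At that threshold, 17 Gy against 8.5 Gy added Elovl5 and Elovl6 as higher (9.68%, against 12.4%) and Scd2 as lower (9.68%, against 8.76%).

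**Figure D4:**
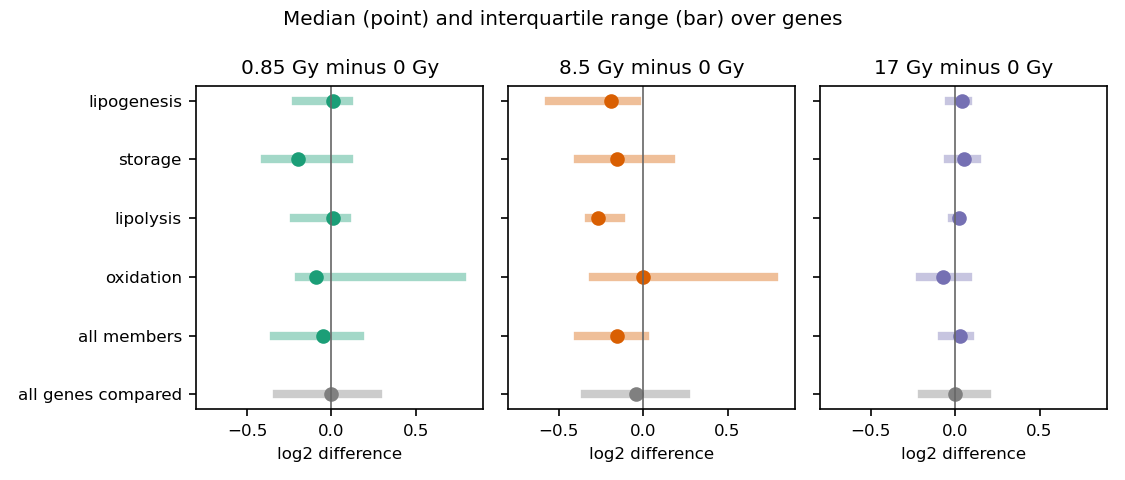
Median (point) and interquartile range (bar) of the log2 difference from the 0 Gy array for the 4 roles, all members and all genes compared, with 1 panel for each of 0.85, 8.5 and 17 Gy. The bars are narrowest at 17 Gy, and the oxidation bar reaches to 0.77 at 0.85 and 8.5 Gy while its medians are -0.09 and 0.00.

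Other genes of the same routes, from lists separate from the 35, were then counted. Of 8 other lipolysis genes compared, 3 were 2-fold lower at 0.85 Gy and 3 at 8.5 Gy, and 0 were higher in either comparison. Over all genes, 3.68% and 3.63% were 2-fold lower and 1.78% and 2.63% higher. Abhd5, the coactivator of the Pnpla2 lipase, read 641 at 0 Gy, 442 at 0.85 Gy, 381 at 8.5 Gy and 591 at 17 Gy, 2.05-fold lower at 0.85 Gy and 2.16-fold lower at 8.5 Gy. G0s2, an inhibitor of the same lipase, read 2419, 1032, 2303 and 2995 at 0, 0.85, 8.5 and 17 Gy, 3.33-fold lower at 0.85 Gy and -0.39 log2 at 8.5 Gy. An activator and an inhibitor of lipolysis were thus both lower at 0.85 Gy, beside Pnpla2 at 0.01. Pde4d, a phosphodiesterase that degrades cyclic AMP, was 2.53-fold and 2.43-fold lower at 0.85 and 8.5 Gy, and its other probe was not detected. Ces1f, a carboxylesterase with close relatives that may share its signal, was 3.18-fold lower at 8.5 Gy. In the authors' normalized values Abhd5 was at -0.87 and -0.93 log2 at 0.85 and 8.5 Gy and Pde4d at -0.997 and -0.958, all under 2-fold. G0s2 at 0.85 Gy (-1.54) and Ces1f at 8.5 Gy (-1.48) were past 2-fold there.

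Of 22 other storage genes, 3 were 2-fold lower at 0.85 Gy, 2 at 8.5 Gy and 1 of 23 at 17 Gy, with 0 higher in any of the 3 comparisons, beside the same shares of all genes (0.459% lower and 0.88% higher at 17 Gy). Of the other detected probes of these genes, 2 dim probes of Vldlr, a lipoprotein receptor, were 2-fold higher at 8.5 Gy (1.04 and 1.11). They read 160 and 128 there, and the second was not detected at 0 Gy. The brightest Vldlr probe was at -0.09, and the remaining ones at -0.22 and -0.05. Vldlr was picked after its values were seen. Gpat3, a microsomal glycerol phosphate acyltransferase, read 494 at 0 Gy, 186 at 0.85 Gy, 208 at 8.5 Gy and 286 at 17 Gy. It was 5.15-fold, 3.78-fold and 2.09-fold lower in order of dose, with -1.50, -1.16 and -0.88 log2 at its other probe, so both probes put every dosed array below 0 Gy. The size went with the background correction, at -1.71, -1.44 and -0.84 log2 in the authors' normalized values, where 17 Gy is under 2-fold. The related member Gpam, at 0.30, 0.17 and 0.13, did not share this. Fabp3, a fatty acid carrier of muscle and brown fat, was 2.66-fold lower at 0.85 Gy, the droplet coat gene Plin4 2.17-fold lower at 0.85 Gy, and Angptl4, a secreted inhibitor of the lipase encoded by Lpl, 2.15-fold lower at 8.5 Gy. In the authors' normalized values Angptl4 was at -0.99 log2, just under 2-fold, while Fabp3 (-1.36) and Plin4 (-1.09) were past it.

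By their brightest probes, other oxidation genes were mostly level. Of 24 compared, 0 were 2-fold higher in any of the 3 comparisons, and 1, 2 and 0 were 2-fold lower in order of dose, with medians of 0.04, -0.06 and -0.04, beside the shares of all genes given for lipolysis. Pdk4, a kinase that turns off pyruvate dehydrogenase, was 2.09-fold lower at 0.85 Gy. Acaa1b, a peroxisomal thiolase, was 2.16-fold lower at 8.5 Gy, and Acot1, an acyl-CoA thioesterase, 2.01-fold lower, with 0.01 log2 at its other probe. In the authors' normalized values Pdk4 (-0.98 log2) and Acot1 (-0.78) were under 2-fold, and Acaa1b (-1.01) was past it. Acaa1b and Acot1 have near-identical relatives that may share their signal. These counts rest on the brightest probe of each gene, and dimmer probes differed from it. Of 14 other detected probes of these genes at 0.85 Gy, 1 was 2-fold higher (all genes had 4.1% of 2461 such probes), and of 13 at 8.5 Gy, 3 were (4.9% of 2590), with medians of 0.58 and 0.75 log2 beside 0.13 and 0.10 over such probes of all genes. For Pparg, the nuclear receptor that drives adipocyte genes, the brightest probe was at 0.30 and 0.35 at 0.85 and 8.5 Gy, and the others at 1.56 and 0.56 at 0.85 Gy, with both at least 2-fold higher at 8.5 Gy. The other probe of Hadh, a hydroxyacyl-CoA dehydrogenase, was at 1.08 at 8.5 Gy and was not detected at 0 Gy. Crat, Acads, Etfa and Slc25a20, all genes of mitochondrial fatty acid use, each had at least 1 other probe between 0.65 and 0.91 log2 on both arrays, where the brightest probes lay between -0.56 and 0.14. These 6 genes were chosen after their values were seen. Of 15 other lipogenic genes compared at 17 Gy, Mlx, a partner of the glucose-sensing factor encoded by Mlxipl, was 2.03-fold lower. Its intensity was 104 against 130 at 0 Gy, with -0.32 log2 at its other probe and -0.44 in the authors' normalized values. At 0.85 and 8.5 Gy, 0 of 15 and 0 of 16 lipogenic genes were 2-fold apart by their brightest probes. The dimmer probe of Acss2, a cytosolic acetyl-CoA synthetase, was at 1.67 and 1.91 log2 there, against 0.38 and 0.45 at the brighter one, a pair also picked after its values were seen.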

How the data were processed

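Expression was measured on 4 Illumina arrays, 1 at each absorbed dose. Per the labels' protocols, RNA was extracted with a kit for lipid-rich tissue, labelled with biotin and checked on a Bioanalyzer, and no source at hand names the scanner software. The non-normalized table as deposited by the authors holds bead bead intensity for 26512 probes and, per the file headers, a detection p-value beside each. Its lowest intensities lie between 69 and 79, from which it is inferred that background was not subtracted. The authors' normalized table holds intensity with identical sorted values on all arrays, and the deposited value table equals it for its 25697 probes.

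The non-normalized intensities were taken through limma's neqc (limma 3.58.1, R 4.3.3) (background from the detection p-values, normexp, an offset of 16, quantile normalization, log2), checked on simulated data. Comparisons and figures used Python 3.11.15, numpy 2.4.6, pandas 2.3.3 and matplotlib 3.10.9. The platform annotation named 23978 probes of 16593 genes. The brightest probe by mean intensity stands for a gene, and its others are given beside it. Genes were compared where either array of the pair detected them (p under 0.01). With 1 array a dose no test was run, and genes at least 2-fold apart were counted. The members and lists were chosen with earlier results of these data known. All members are named, and from each other list up to 4 genes a comparison, the largest among those 2-fold apart in the same direction in the authors' values. Of the 218 list entries, 194 had a probe. Alternatives changed the background correction, the normalization, the detection filter, the probe rule, the threshold and the centring.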

Additional observations from a re-analysis of the deposited data

How the results depend on the processing

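No paired analysis was possible because each dose has 1 array, and no array could be left out as a replicate. The counts of members 2-fold apart were small, and those of genes near background went with the setting. Without background correction, and in the authors' normalized values, the members 2-fold higher numbered 1 at 0.85 Gy, 1 at 8.5 Gy and 0 at 17 Gy, and those lower 0, 1 and 0; requiring detection on both arrays gave the same counts. What was lost there is Acat1 (0.54 log2 at 0.85 Gy without background correction) and Elovl4 (-0.34), each detected on only some arrays. At a 1.5-fold threshold there were 3 lower at 0.85 Gy, 4 higher and 5 lower at 8.5 Gy and 2 lower at 17 Gy. Centred on the fat markers, 0 were lower at 0.85 Gy, and 4 were higher and 1 lower at 8.5 Gy. With every probe counted, an alternative chosen after seeing the data, 4 probes were higher at 0.85 Gy and 4 at 8.5 Gy. The oxidation median was then 0.45 at 0.85 Gy and 0.37 at 8.5 Gy. The array order held for 19 of 32 members with scaling to the 75th percentile and for 11 with centring on fat markers; the cause was not tested. Acaa2 ranged from 1.16 to 1.47 at 0.85 Gy and from 1.04 to 1.56 at 8.5 Gy, and Slc27a1 at 8.5 Gy from -1.46 to -1.14. Both thus kept their side of 2-fold in every setting that gives a gene 1 value. Counted by itself, the dimmest Acaa2 probe was under 2-fold, at 0.92 and 0.58 at 0.85 and 8.5 Gy. Leaving the 8.5 Gy array out of the normalization, also chosen after seeing the data, gave Acaa2 1.25 at 0.85 Gy. Over all genes, 137 were 2-fold higher and 283 lower at 0.85 Gy, 207 and 285 at 8.5 Gy, and 69 and 36 at 17 Gy. The authors' values gave 24 and 87, 99 and 82, and 16 and 1 in the same order, no background correction 21 and 87, 92 and 85, and 14 and 2, and detection on both arrays 83 and 199, 83 and 209, and 27 and 14. With every probe averaged, 89 were higher at 0.85 Gy. Centring on fat markers moved the median of all genes to 0.13 at 0.85 Gy and 0.28 at 8.5 Gy, with 238 higher and 200 lower at 0.85 Gy and 530 higher and 102 lower at 8.5 Gy. The counts of dimmer probes of the other pathway genes were likewise chosen after seeing the data. Signal near background limits Acat1, Elovl4, Ehhadh, Cd36 and Fabp4, and the top ranks limit Acly, Acaca, Scd1, Lpl, Dgat2, Pnpla2 and Acadm.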

Other observations

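Cholesterol synthesis draws on the same acetyl-CoA pool as lipogenesis and was not among the 35 genes. Of 11 genes compared, 8 had a positive difference at 0.85 Gy, 9 at 8.5 Gy and 7 at 17 Gy (49.3%, 45.4% and 49.5% of all genes had one), with medians of 0.33, 0.26 and 0.15 log2. Nsdhl, a sterol dehydrogenase of the late pathway, read 283 at 0 Gy, 639 at 0.85 Gy, 678 at 8.5 Gy and 301 at 17 Gy. It was 2.03-fold higher at 0.85 Gy and 2.48-fold higher at 8.5 Gy, and 0.03 log2 at 17 Gy, so its high arrays were those of Acaa2. In the authors' normalized values it was at 0.82 log2 at 0.85 Gy, under 2-fold, and at 1.07 at 8.5 Gy. Its 3 other probes gave 0.84, 1.05 and 0.01 at 0.85 Gy and 1.07, 1.06 and 0.22 at 8.5 Gy, of which 1 probe did not share the difference. Sc5d, a sterol desaturase, was not well above background at 0 Gy and at least 1.79-fold higher at 8.5 Gy after background correction, with 0.50 log2 in the authors' normalized values.

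Ppargc1a, the coactivator of mitochondrial and oxidation genes, read 549 at 0 Gy, 156 at 0.85 Gy, 341 at 8.5 Gy and 458 at 17 Gy. It was 8.28-fold lower at 0.85 Gy, the array on which Acaa2 was 2.38-fold higher, and 2.09-fold lower at 8.5 Gy. In the authors' normalized values it was at -2.15 and -0.87 log2, so the size depends on the background correction. Ppargc1a came from the brown fat marker list and had 1 probe. The other detected markers of that list were Ucp1, Cidea, Cox7a1 and Cox8b. They did not share its difference, lying between -0.12 and 0.17 at 0.85 Gy and between -0.20 and 0.57 at 8.5 Gy.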
